A study of Homo sapiens with 4 samples.

Results

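Short structured non-coding RNAs were read in a human clear cell renal carcinoma line, 786-0, that carried either a non-targeting short hairpin (shNT) or a hairpin against GLUD1 (shGLUD1), the gene of mitochondrial glutamate dehydrogenase. There were 2 libraries per hairpin, and every culture had been without amino acids for 12 h, so no fed cells were compared. An RNA was included when its symbol was that of a small nucleolar RNA (SNORD or SNORA), a small Cajal body RNA (SCARNA), a small nuclear RNA (RNU) or 1 of RN7SK, RN7SL1, RN7SL2, RMRP, RPPH1 and TERC, and when its mean was at least 1 TPM over the 4 libraries. Of 57820 genes in the table, 2637 had such a name, 35 of them were above 0 in any library, and 15 reached the mean. The RNAs were thus chosen by their names and by their mean TPM over both groups.

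These RNAs work as folded molecules bound to proteins and are not translated. 7SK holds the kinase P-TEFb inactive and so restrains elongation by RNA polymerase II, 7SL is the scaffold of the signal recognition particle that brings ribosomes to the endoplasmic reticulum, and RNase MRP and RNase P RNAs are parts of enzymes that cleave precursors of ribosomal and transfer RNA. Box C/D snoRNAs guide 2'-O-methylation, although the U3 RNA of the SNORD3 genes acts in the cleavage of precursor ribosomal RNA. Most H/ACA snoRNAs guide pseudouridylation, and small Cajal body RNAs guide both modifications for spliceosomal RNAs such as U2. 7SK, 7SL, RNase MRP and RNase P RNA are made by RNA polymerase III and U2 and U3 by RNA polymerase II from genes of their own, while most other snoRNAs are cut from introns of host genes. The libraries were made with the TruSeq V2 kit, which enriches RNA with a poly(A) tail. The mature forms of these RNAs lack a long tail, so TPM describe the captured molecules, and the share of each RNA that was captured is unknown.

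The labels were read first. GLUD1 itself read 18.1 and 17.4 TPM in shNT. With the hairpin against it, replicate 1 read 13.5 TPM and replicate 2 read 19.8 TPM, above both controls. The log2 difference of -0.11 (SE 0.19) did not pass (limma adjusted p = 0.631). GLUD1 was lower after median-ratio rescaling (-0.84, limma adjusted p = 0.00201), with quantile normalization (-0.75, limma adjusted p = 0.00757) and with length and GC trends removed (-0.90, limma adjusted p = 0.00291). Because the TPM themselves do not separate the groups, shGLUD1 below means libraries labelled so. Of the renal carcinoma genes, VIM (891 to 3756 TPM), KRT8 (41.5 to 64.1) and PAX8 (5.18 to 8.75) were present, while KRT18 (0.66 to 1.87 TPM) and CDH16 (0.05 to 0.36) were low, PAX2 did not exceed 0.12 TPM and the leukocyte gene PTPRC did not exceed 0.01 TPM. Whether replicates were grown separately is not in the labels, and the p-values rest on the spread between libraries that may be technical repeats. That spread was moderated with all genes, at a prior of 8.8 degrees of freedom for the median gene. The median of all 12524 genes fitted was 0.63 log2 units higher in shGLUD1. Values called rescaled come from a second fit in which median-ratio factors put the typical gene near 0.

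The sequences of 4 of the RNAs with large differences, and of a U3 copy, are printed from GENCODE 29 on GRCh38, 5' to 3' in DNA letters, because several have near-identical copies among which reads can be split. RMRP is shown whole with nothing marked. RN7SK is shown by its first 120 of 331 bases, with the 3 GATC motifs between bases 13 and 67 in capitals. In SNORD3A the capitals mark the last TGATGA and last CTGA, the letters of box C and box D, and in SNORD3C the 1 base of 217 that differs from SNORD3A. In RNU2-2P, a U2 gene, they mark GTAGTA, which pairs with the intron branch site, and ATTTTTG, the site of the Sm ring.
RMRP: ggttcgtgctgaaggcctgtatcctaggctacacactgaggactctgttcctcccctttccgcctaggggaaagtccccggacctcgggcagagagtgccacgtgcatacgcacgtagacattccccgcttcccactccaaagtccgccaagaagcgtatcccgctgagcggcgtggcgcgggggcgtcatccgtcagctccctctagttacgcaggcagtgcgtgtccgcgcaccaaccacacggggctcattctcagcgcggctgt
RN7SK: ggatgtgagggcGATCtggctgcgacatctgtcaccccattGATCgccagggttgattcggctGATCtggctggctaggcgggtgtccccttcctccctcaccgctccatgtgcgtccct
SNORD3A: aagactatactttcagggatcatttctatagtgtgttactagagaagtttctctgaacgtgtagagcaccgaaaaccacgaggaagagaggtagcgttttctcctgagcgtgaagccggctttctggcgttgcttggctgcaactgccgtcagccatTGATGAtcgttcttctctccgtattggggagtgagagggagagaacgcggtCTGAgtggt
SNORD3C: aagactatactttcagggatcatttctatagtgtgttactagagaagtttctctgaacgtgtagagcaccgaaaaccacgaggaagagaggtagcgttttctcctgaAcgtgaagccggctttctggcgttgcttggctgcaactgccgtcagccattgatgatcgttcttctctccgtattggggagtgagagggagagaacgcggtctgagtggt
RNU2-2P: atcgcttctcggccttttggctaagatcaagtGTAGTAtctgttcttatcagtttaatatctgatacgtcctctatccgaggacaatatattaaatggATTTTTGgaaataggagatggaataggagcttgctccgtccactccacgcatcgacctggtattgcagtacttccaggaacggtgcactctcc

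The motifs were searched on the RNA strand only, and a match is a description of the letters. Of 955 snoRNA transcripts in GENCODE 29, 31.5% hold TGATGA with CTGA at or after it. GTAGTA occurs in 3.58% and ATTTTTG in 6.11% of 1900 snRNA transcripts. Among 2226 transcripts of the type given to RN7SK (misc_RNA), 3.1% hold GATC at least 3 times in their first 120 bases.

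The abundant RNAs were far lower in shGLUD1. All 15 together held 0.23% and 0.263% of all TPM in shNT, but 0.0267% and 0.0312% in shGLUD1. In such bulk libraries, fewer cells with an RNA and less of it per cell cannot be told apart. In the limma test 10 of the 15 fell, none rose and 5 did not pass, where 7.77% of all genes fitted were lower and 56.7% higher. At an unadjusted p under 0.05, 1 RNA (SNORA23) was higher. After rescaling 10 were lower and none higher, against 28.4% and 22.7% of all genes. In 10 RNAs the groups did not overlap, all with shNT higher, against 13.5% of all genes in that direction and 69.9% in the other. The median log2 fold change was -2.10 (rescaled -2.87) over the 13 RNAs that were not at 0 throughout a group, beside 0.63 over all genes. In 5 of the 15 the lower group had a mean under 1 TPM, so these entered through their higher group alone, RNU2-2P and SCARNA2 of the 10 lower RNAs among them. The counts are a description of RNAs that passed the filter.

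**Figure D1:**
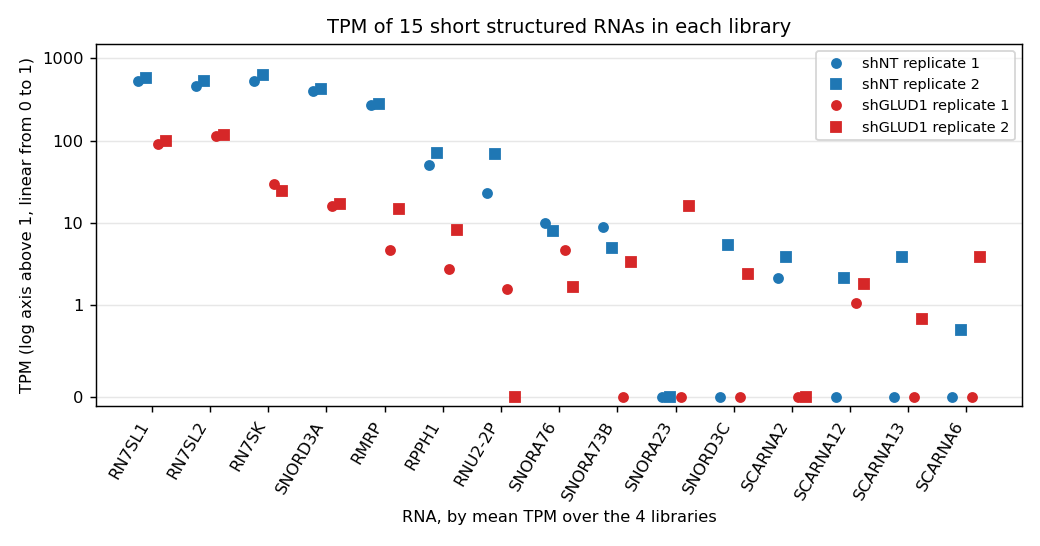
TPM of each of the 15 RNAs in each library (vertical axis logarithmic above 1 TPM and linear from 0 to 1), with shNT in blue, shGLUD1 in red, circles for replicate 1 and squares for replicate 2. From RN7SL1 to RNU2-2P every shNT library lies above both shGLUD1 libraries, and 8 of the 15 RNAs are listed at 0 in at least 1 library.

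The level fell into 2 ranges. RN7SL1, RN7SL2, RN7SK, SNORD3A, RMRP, RPPH1 and RNU2-2P each had a mean above 20 TPM and made up 99.1% and 98.9% of the summed TPM in shNT and 97.8% and 90.4% in shGLUD1. All 7 fell. The other 8 had means under 10 TPM and summed to 21.1 and 29 TPM in shNT and to 5.78 and 30.03 TPM in shGLUD1, so their sums overlapped between the groups. TPM divide by a transcript length that is not given here, so an order of levels between RNAs depends on those lengths.

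RN7SK (ENSG00000202198, chr6:52995620-52995950, plus strand), the inhibitor RNA of P-TEFb, stood at 532 and 629 TPM in shNT and at 30.05 and 24.4 TPM in shGLUD1. Both shGLUD1 libraries lay far below both controls, and the replicates of each group lay close together. The mean was 581 ± 68.4 TPM (SD, n = 2) in shNT and 27.2 ± 3.97 TPM (n = 2) in shGLUD1, 21.3-fold lower. On the log2 scale the difference was -4.37 (SE 0.13, 95% interval -4.65 to -4.08, limma adjusted p = 6.2e-09), and -5.13 after rescaling. It was the seventh lowest of all genes fitted. RN7SKP255, RN7SKP203 and RN7SKP11, 7SK pseudogenes outside the rule that were chosen for naming after their values were seen, also fell (-1.78, -1.80 and -1.64, limma adjusted p between 0.000732 and 0.00509). Without shGLUD1 replicate 2, RN7SKP255 and RN7SKP11 no longer passed (-1.08 and -1.0, limma adjusted p = 0.0936 and 0.0899). Their levels were low, between 2.58 and 6.88 TPM in shNT and between 0 and 1.64 TPM in shGLUD1, and reads could be shared with RN7SK.

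RMRP (ENSG00000269900, chr9:35657751-35658018, minus strand), the RNA of RNase MRP, stood at 273 and 279 TPM in shNT and at 4.72 and 14.8 TPM in shGLUD1. The controls were nearly equal, whereas the shGLUD1 libraries differed from each other by more than the controls did on the log scale, and the groups did not overlap. The mean was 276 ± 4.33 TPM in shNT and 9.77 ± 7.14 TPM in shGLUD1 (SD, n = 2 each), 28.3-fold lower. With a log2 fold change of -4.87 (SE 0.34, 95% interval -5.61 to -4.12, limma adjusted p = 3.1e-06, rescaled -5.59) it was the second lowest of the 12524 genes. The value was -5.60 without shGLUD1 replicate 2 and -4.13 without shGLUD1 replicate 1.

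RPPH1, the RNA of RNase P, shares several protein subunits with RNase MRP. Its entry (ENSG00000259001, chr14:20343048-20343685, minus strand) is a 638-base transcript in GENCODE 29 that is longer than the RNA and overlaps exons of PARP2 on the other strand. It stood at 50.3 and 71.9 TPM in shNT and at 2.77 and 8.17 TPM in shGLUD1. The groups did not overlap, and shGLUD1 replicate 1 was again the lower library. On the log2 scale it fell (-3.38, SE 0.33, limma adjusted p = 2.2e-05, rescaled -4.08), -4.02 without shGLUD1 replicate 2 and -2.74 without shGLUD1 replicate 1. PARP2, a DNA repair enzyme, rose (1.40, limma adjusted p = 0.00121, rescaled 0.74), the opposite direction. The call of PARP2 was lost with quantile normalization (0.64, limma adjusted p = 0.0707). Within a library the ratio of RMRP to RPPH1 TPM was 5.43 and 3.89 in shNT and 1.70 and 1.81 in shGLUD1. For 2 such ratios against 2, no exact two-sided permutation p can fall below 0.333.

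The differences of the 7SL RNAs were smaller. RN7SL1 (chr14:49586580-49586878, plus strand) stood at 528 and 583 TPM in shNT and at 91.2 and 99.8 TPM in shGLUD1. RN7SL2 (chr14:49862550-49862849, minus strand) stood at 464 and 539 TPM in shNT and at 115 and 117 TPM in shGLUD1. In both RNAs the groups were widely separated and the replicates close. The log2 fold changes were -2.53 (SE 0.10, 95% interval -2.75 to -2.31, limma adjusted p = 7.7e-08) and -2.10 (SE 0.10, 95% interval -2.32 to -1.87, limma adjusted p = 3.3e-07), or 5.81-fold and 4.32-fold lower by group means, and -3.30 and -2.87 after rescaling.

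RN7SL1 was the higher of the pair in shNT, with a ratio to RN7SL2 of 1.14 and 1.08, and the lower in shGLUD1, with 0.795 and 0.851. The 2 RNAs are near-identical copies, so the split of reads between them is uncertain, which the sum avoids. RN7SL3, another copy that is outside the rule, stood at 96.6 and 120 TPM in shNT and at 36.3 and 33.9 TPM in shGLUD1 (log2 fold change -1.59, limma adjusted p = 8.2e-06, rescaled -2.35). With the pseudogene RN7SL4P, which also fell (-2.19, limma adjusted p = 0.000835), the 4 entries summed to 1093 and 1250 TPM in shNT and to 244 and 251 TPM in shGLUD1, 4.74-fold lower. RN7SL4P was no longer called with no filter (limma adjusted p = 0.0561). Another 7SL pseudogene, RN7SL689P, was listed at 1.18 and 0 TPM in shNT and at 1.95 and 1.36 TPM in shGLUD1, the other direction, and did not pass (0.84, limma adjusted p = 0.0556). These 3 copies were named after their values were seen.

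The fall of 7SL and of 7SK can be set side by side within a library, where scaling between libraries has no part. The ratio of RN7SL1 to RN7SK TPM was 0.992 and 0.926 in shNT and 3.04 and 4.09 in shGLUD1, so it was higher in shGLUD1. RN7SL1 and RN7SL2 together summed to 992 and 1122 TPM in shNT and to 206 and 217 TPM in shGLUD1, above RN7SK in every library. The ratio of RN7SK to SNORD3A, by contrast, overlapped between the groups (1.31 and 1.46 in shNT, 1.87 and 1.44 in shGLUD1). RN7SL1 and RN7SL2 made up 43.1% and 42.6% of the summed TPM of the 15 RNAs in shNT and 77.1% and 69.7% in shGLUD1.

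**Figure D2:**
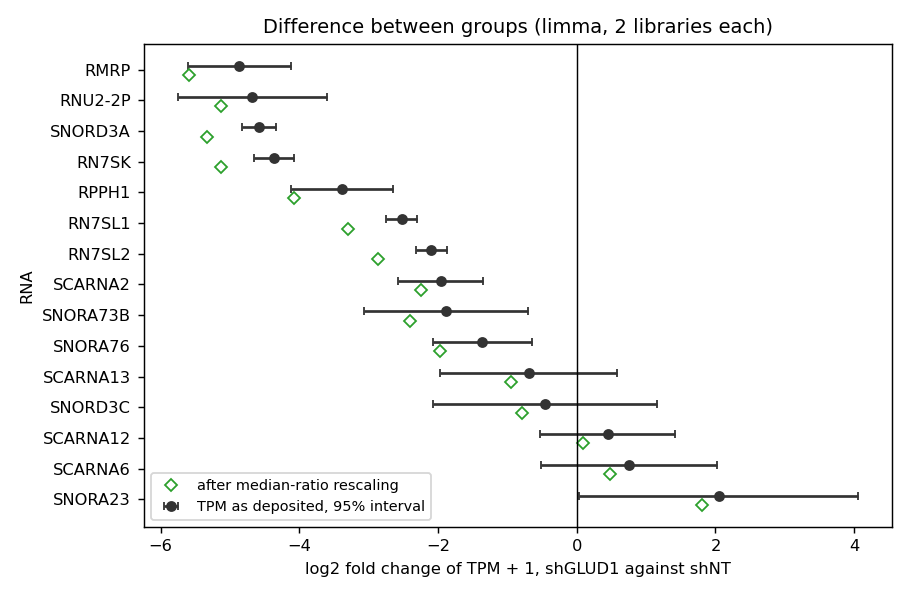
Log2 fold change of TPM + 1 in shGLUD1 against shNT for each RNA (horizontal axis), as black points with 95% limma intervals for TPM as deposited and open green diamonds after median-ratio rescaling. RMRP, RNU2-2P, SNORD3A, RN7SK and RPPH1 lie between -4.87 and -3.38, RN7SL1 and RN7SL2 at -2.53 and -2.10; SNORA23 and SCARNA2 are listed at 0 throughout 1 group, so their points depend on the 1 TPM added.

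SNORD3A, a gene of the U3 snoRNA (ENSG00000263934, chr17:19188016-19188714, plus strand), stood at 407 and 431 TPM in shNT and at 16.1 and 17 TPM in shGLUD1. The replicates lay close together in both groups, which were far apart. The mean was 419 ± 17.1 TPM in shNT and 16.5 ± 0.643 TPM in shGLUD1 (SD, n = 2 each), 25.3-fold lower, with a log2 fold change of -4.58 (SE 0.11, 95% interval -4.82 to -4.34, limma adjusted p = 1.5e-09, rescaled -5.33). SNORD3C, on the other strand nearby (chr17:19189665-19190245), was listed at 0 and 5.4 TPM in shNT and at 0 and 2.4 TPM in shGLUD1 and did not pass (log2 fold change -0.46, limma adjusted p = 0.6). Its direction depended on single libraries, with values between -1.80 and 0.88 when each was left out. SNORD3B-1, whose U3 part differs from SNORD3A at 1 base and which the rule left out, was at 10.5 and 19.8 TPM in shNT and at 2.3 and 0 TPM in shGLUD1 (log2 fold change -3.09, limma adjusted p = 0.000262). With SNORD3D, the 4 SNORD3 entries summed to 418 and 457 TPM in shNT and to 18.5 and 19.7 TPM in shGLUD1, 22.9-fold lower in shGLUD1. TPM divide by a transcript length, and the SNORD3A and SNORD3C entries are 699 and 581 bases long. The split of reads among these 4 can therefore shift that sum, by an amount that was not tested. Any other U3 copies were not added.

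RNU2-2P (ENSG00000222328, chr11:62841619-62841809, minus strand), listed in RefSeq as the U2 gene RNU2-2, stood at 23.2 and 69.7 TPM in shNT and was listed at 1.6 and 0 TPM in shGLUD1. As a ratio, the controls differed from each other by more than those of any other RNA with a mean above 20 TPM, yet both lay above both shGLUD1 libraries. The fitted log2 difference was -4.68 (SE 0.49, 95% interval -5.76 to -3.60, limma adjusted p = 2.9e-05, rescaled -5.13), and lay between -5.45 and -3.91 when single libraries were left out. RNU2-2P met the rule through shNT alone, so its place among the lower RNAs is a description. It lies within an exon of WDR74, a ribosome assembly factor, on the same strand, so reads of the 2 can be confused. WDR74 stood at 122 and 123 TPM in shNT and at 98.7 and 93.2 TPM in shGLUD1 (log2 fold change -0.35, limma adjusted p = 0.0123, rescaled -1.12), a far smaller difference that no longer passed without shNT replicate 1 or replicate 2 (limma adjusted p = 0.0862 and 0.0932).

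No other spliceosomal RNA reached the mean of 1 TPM. Entries named RNU take in pseudogenes. Of 1884 such entries, 1876 were listed at 0 in all 4 libraries, those of U6 among them, although every cell makes U6 RNA. Counting variant genes (RNVU1), 9 U1 entries were listed at 2.82 TPM in shNT replicate 1 and at 0 in the other libraries. Of the 8 U1 entries with a sequence in GENCODE 29, 7 are identical, and equal values stood on all 9. Whether a value of 0 here is an RNA that was not captured or a failed estimate was not tested. RNAs with zeros are given library by library.

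Of the 3 H/ACA snoRNA entries, 2 fell. SNORA73B (chr1:28508559-28508762), in an intron of RCC1, was listed at 8.95 and 5.03 TPM in shNT and at 0 and 3.37 TPM in shGLUD1 (a log2 difference of -1.89 with SE 0.54, limma adjusted p = 0.00991, rescaled -2.41). The call was lost without shGLUD1 replicate 1 (-0.83, limma adjusted p = 0.0882) and with trends in length and GC content removed (-1.53, limma adjusted p = 0.134). It was also lost with no variance trend (limma adjusted p = 0.0522) and with no filter (limma adjusted p = 0.169). SNORA76 stood at 10 and 8.05 TPM in shNT and at 4.72 and 1.65 TPM in shGLUD1 (a log2 difference of -1.36 with SE 0.33, limma adjusted p = 0.00401, rescaled -1.97). Without shGLUD1 replicate 2 its value was -0.81 and without shGLUD1 replicate 1 it was -1.92, and the call was lost with no filter (limma adjusted p = 0.0875). Its identifier (ENSG00000266402, chr17:64145970-64146476) belongs in GENCODE 29 to SNHG25, a spliced snoRNA host transcript, so the entry may hold the host and not the snoRNA. SNORA23 (chr11:9428773-9428954), in an intron of IPO7, was listed at 0 in 3 libraries and at 16 TPM in shGLUD1 replicate 2 and did not pass (limma adjusted p = 0.0696).

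The 4 small Cajal body RNAs were at or near the limit of the rule. SCARNA2, which guides modification of U2, was listed at 2.16 and 3.82 TPM in shNT and at 0 in both shGLUD1 libraries. It met the rule through shNT alone, and a 0 may be a failed estimate, so its place among the 10 lower RNAs is a description. Its identifier (ENSG00000270066, chr1:109100193-109100619) is that of a 427-base transcript over the SCARNA2 gene in GENCODE 29. SCARNA12 was listed at 0 and 2.13 TPM in shNT and at 1.06 and 1.82 TPM in shGLUD1. SCARNA13 was listed at 0 and 3.85 TPM in shNT and at 0 and 0.85 TPM in shGLUD1. SCARNA6 was listed at 0 and 0.73 TPM in shNT and at 0 and 3.9 TPM in shGLUD1. In each of these 3 RNAs the groups overlapped and none passed (limma adjusted p between 0.27 and 0.39), and all 3 changed direction in at least 1 of the fits that left out a library.

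The limit of 1 TPM cut through RNAs of like level. SCARNA6 and SCARNA13 were just inside, with means of 1.16 and 1.18 TPM. TERC, the template RNA of telomerase, was just outside with a mean of 0.958 TPM (2.2 and 0.78 TPM in shNT, 0.5 and 0.35 TPM in shGLUD1). SNORA67 was outside too, with a mean of 0.905 TPM (0.71 and 0.81 TPM in shNT, 0.99 and 1.11 TPM in shGLUD1).

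Hosts were read where an RNA lay inside a same-strand gene, which held for 6 of the 15. RCC1, the nucleotide exchange factor of Ran, rose on TPM (0.86, limma adjusted p = 0.000199) but not after rescaling (0.088), while SNORA73B in its intron fell. SNHG3, a snoRNA host transcript that also spans SNORA73B, stood at 27.3 and 19.5 TPM in shNT and at 51.9 and 60.5 TPM in shGLUD1 and rose (1.25, limma adjusted p = 0.000127, rescaled 0.49). IPO7, a nuclear import receptor and host of SNORA23, stood at 3.03 and 3.89 TPM in shNT and at 13.2 and 16.2 TPM in shGLUD1 and rose (1.82, limma adjusted p = 5.7e-05, rescaled 1.14). ATG16L1, an autophagy gene that holds SCARNA6, rose on TPM (0.52, limma adjusted p = 0.0368) but not after rescaling (-0.19). That call was lost when any library but shGLUD1 replicate 1 was left out (0.36 to 0.59, limma adjusted p between 0.125 and 0.248). PHB2, a mitochondrial prohibitin that holds SCARNA12, and SNHG10, which holds SCARNA13, had values of -0.24 and 0.10 that did not pass (rescaled -1.01 and -0.63, both lower). Among the abundant RNAs only RNU2-2P had such a gene.

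**Figure D3:**
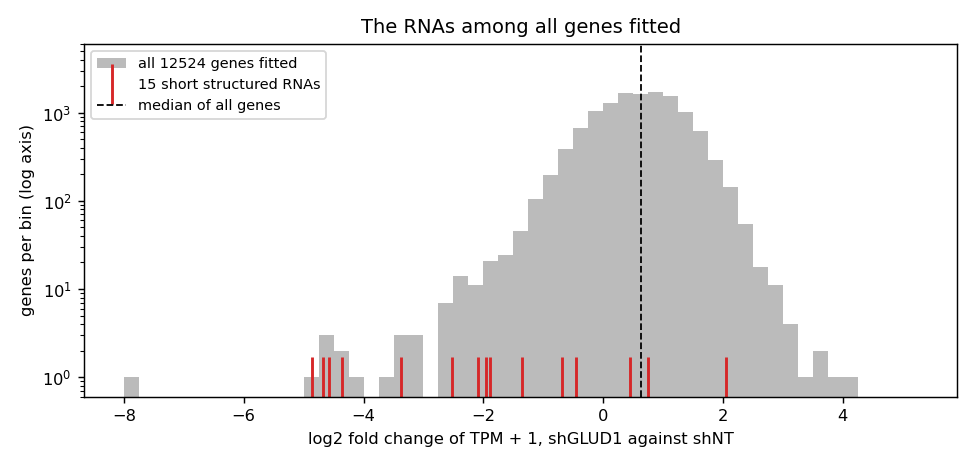
Histogram of the log2 fold change of TPM + 1 in shGLUD1 against shNT for all 12524 genes fitted (grey, logarithmic vertical axis), with the 15 RNAs as red ticks and the median of all genes, 0.63, as a dashed line. RMRP, RNU2-2P, SNORD3A, RN7SK and RPPH1 lie at the far left, at ranks 2, 3, 4, 7 and 11 from the lowest.

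The length of a transcript moved with the difference between the groups. Of 128 other genes of up to 350 bases, 34 fell (26.6%) and 19 rose, with a median log2 fold change of -0.18, whereas of 1733 genes over 6000 bases 32 fell (1.85%) and 1254 rose, with a median of 0.96. Those 128 include pseudogenes of 7SL and 7SK. SNORD3A, SNORD3C, RPPH1 and SCARNA2 have longer entries, and of 657 other genes of 350 to 700 bases 122 fell (18.6%) and 124 rose. With loess trends in length and GC content removed, 9 of the 15 RNAs were lower and none higher, RN7SK at -4.09, RMRP at -4.46, SNORD3A at -4.60 and RN7SL1 at -2.16 (limma adjusted p between 1.9e-05 and 0.0017). These length classes were set after the data were seen.

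Clustered histone genes, whose replication-dependent mRNAs end in a stem loop in place of a poly(A) tail, were read beside the RNAs. They summed to 646 and 596 TPM in shNT and to 1147 and 1111 TPM in shGLUD1, on TPM the opposite direction to the RNAs. HIST1H1C (a mean of 144 TPM in shNT and 366 in shGLUD1), HIST2H2AA4 (241 and 382) and HIST1H2BK (29.9 and 113) carried most of that rise and were named after their values were seen. Of 42 measured, 13 rose, 4 fell and 25 did not pass, with a median of 0.37 (rescaled 5 higher, 11 lower, median -0.19). Over all genes the median was 0.63, with 56.7% higher and 7.77% lower on TPM, and 22.7% and 28.4% after rescaling. The histone median was thus below that of all genes on TPM, and it was negative after rescaling. Some histone genes of these clusters also give mRNAs with a tail.

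The genes of proteins that bind, transcribe or process these RNAs were read next. Of 121 measured genes in 11 lists, 71 rose, 9 fell and 41 did not pass on TPM, with a median of 0.64 beside 0.63 over all genes, whereas the rescaled fit called 24 higher and 41 lower, at a median of -0.10. Of all genes fitted, 56.7% were higher and 7.77% lower on TPM, and 22.7% and 28.4% after rescaling, so a list is to be read against those shares. Of 6 genes of the 7SK particle and P-TEFb, 4 rose and none fell (rescaled none higher, 1 lower). CDK9, the kinase of P-TEFb, stood at 21.8 and 16.9 TPM in shNT and at 36 and 40.3 TPM in shGLUD1 and rose on TPM (0.95, limma adjusted p = 0.000457). It did not pass after rescaling (0.20, limma adjusted p = 0.282). CCNT1, its cyclin, and MEPCE, which caps 7SK, also rose on TPM (0.97 and 0.65) and did not pass after rescaling (0.51 and -0.093). CCNT1 was lost without shNT replicate 1 and MEPCE without shNT replicate 2 (limma adjusted p = 0.0726 and 0.0598). LARP7, which binds the 3' end of 7SK, was at 9.29 and 10.9 TPM in shNT and at 7.61 and 11.8 TPM in shGLUD1 (-0.08, limma adjusted p = 0.77). It was named after its values were seen, and was lower after rescaling (-0.78, limma adjusted p = 0.00618).

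Of 8 genes of the signal recognition particle and its receptor, 4 rose and none fell (rescaled 2 higher, 4 lower). SRP54, the subunit that binds signal sequences, rose from 2.52 and 4.01 TPM to 10.6 and 14.6 TPM (1.68, limma adjusted p = 0.000221, rescaled 1.02), and SRP68 rose by 1.43 (rescaled 0.68). Of 12 entries for RNase P and RNase MRP proteins, with 2 rows for RPP14, 6 rose and 2 fell (rescaled 1 higher, 5 lower), with RPP38 at 1.43 (rescaled 0.75). In the box C/D list 4 of 7 rose and 2 fell (rescaled 1 and 4). NUFIP1, a snoRNP assembly factor, and NOP58, a core box C/D protein, rose (1.14 and 1.03, limma adjusted p = 0.00316 and 0.00227), with rescaled values of 0.63 and 0.32, of which NOP58's did not pass. Both calls were lost with quantile normalization (0.47 and 0.31, limma adjusted p = 0.0901 and 0.23). They were also lost with length and GC trends removed (0.39 and 0.44, limma adjusted p = 0.109 and 0.0907). RRP9, which binds U3 RNA, stood at 117 and 130 TPM in shNT and at 68.8 and 66.3 TPM in shGLUD1 and fell (-0.86, limma adjusted p = 9.5e-05, rescaled -1.63). FBL, the methyltransferase of box C/D particles, did not pass on TPM (0.03, limma adjusted p = 0.761) and was lower after rescaling (-0.74); it was named after its values were seen. In the H/ACA and telomerase list 4 of 7 rose and none fell (rescaled 1 and 2), with DKC1, the pseudouridine synthase, at 1.23 (rescaled 0.50).

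Of 13 genes of the Sm ring and of snRNP-specific proteins, 4 rose and 2 fell (rescaled 3 higher, 9 lower). SNRPA1, a U2 protein, rose by 1.63 (limma adjusted p = 1e-05, rescaled 0.87). SNRNP70 and SNRPA, both U1 proteins, rose by 1.44 and 1.23 (rescaled 0.67 and 0.47). The list median was lower, at 0.08 (rescaled -0.68), beside 0.63 over all genes. Of the Sm ring genes, SNRPG and SNRPE fell (-0.53 and -0.36) and SNRPD3 rose (0.48). SNRPB, SNRPD1, SNRPD2 and SNRPF did not pass. The rescaled values of these ring genes, named after their values were seen, were all negative. Of 12 genes of RNA polymerase III, 4 rose and 1 fell (rescaled 1 higher, 5 lower), with POLR3A, the largest subunit, at 1.21 (rescaled 0.64). Of 18 factors at promoters of RNA polymerase III and snRNA genes, 10 rose and none fell (rescaled 3 and 6). GTF3C3 was at 1.94 (rescaled 1.35) and SNAPC3 at 1.27 (rescaled 0.72). Of 13 Integrator genes, which cut the 3' ends of snRNAs, 11 rose and none fell (rescaled 3 and 1). INTS8 was at 1.83 (rescaled 1.21) and INTS3 at 1.53 (rescaled 0.84). Of 17 genes of 3' end trimming and decay, 14 rose and 2 fell (rescaled 6 and 2). PARN, a deadenylase, was at 1.71 (rescaled 1.08) and EXOSC10, a nuclear exosome nuclease, at 1.70 (rescaled 0.99). Of 8 Cajal body and assembly genes, 6 rose and none fell (rescaled 3 and 2). GEMIN4 was at 1.74 (rescaled 1.07) and COIL at 1.40 (rescaled 0.84).

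**Figure D4:**
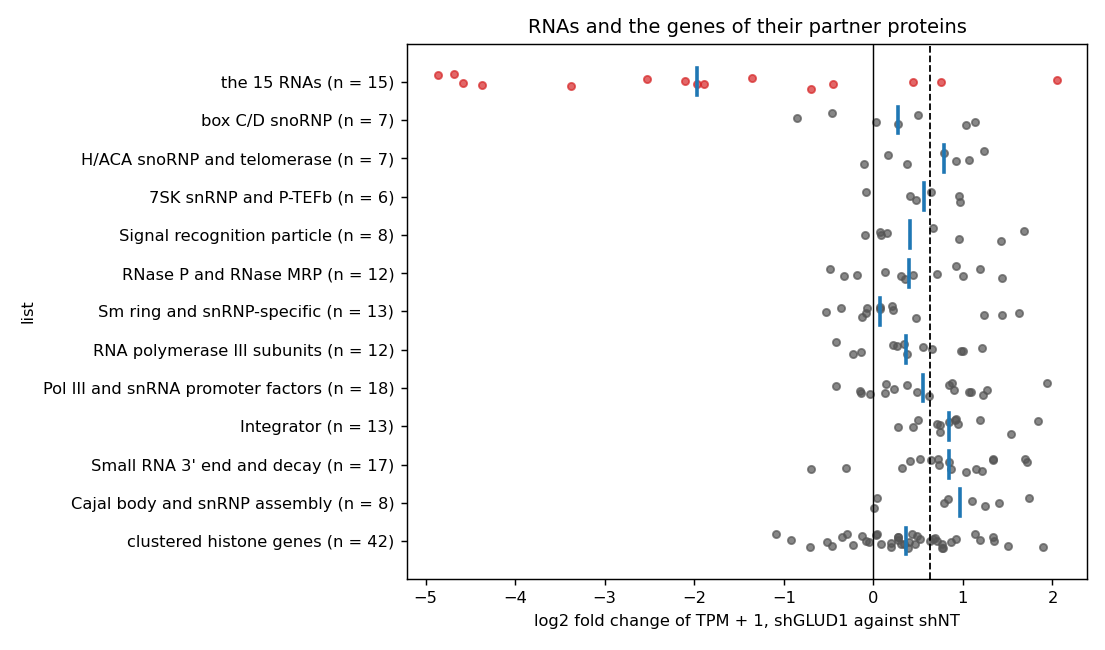
Log2 fold change of TPM + 1 in shGLUD1 against shNT (horizontal axis) for the 15 RNAs (red) and for each measured gene of the 11 partner lists and the clustered histone genes (grey), with list medians as blue bars, no change as a solid line and the median of all genes, 0.63, as a dashed line. Medians of the partner and histone lists lie between 0.08 and 0.97, and 7 RNAs lie below -2. The bar of the 15 RNAs, at -1.96, includes 2 RNAs listed at 0 throughout a group.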

How the data were processed

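The authors deposited 1 table of TPM (transcript counts per length, scaled to 1000000 within a library) for 57820 genes and 4 libraries, each column summing to that total. Bowtie 0.12.2 and 2 builds, hg38 and mm8, appear with no role in the submitters' processing notes. Which quantifier, annotation and transcript lengths were used is not given in the sources used here. These values keep no read totals, so depth is unknown and no counting interval is given.

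Values were analysed as log2(TPM + 1), which understates changes of low genes. A mean of 1 TPM or more was required, which left 12524 genes for limma 3.58.1 in R 4.3.3 (moderated by eBayes along a variance trend, no term but group, two-sided, Benjamini-Hochberg over all genes), and only the RNAs, their copies, hosts and partners are printed. The fit was tested on simulated data. Python 3.11.15, pandas 2.3.3 and matplotlib 3.10.9 made tables and figures.

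Loci, gene types, lengths and sequences come from GENCODE 29 on GRCh38. Of the 15 RNAs, 13 matched by identifier and 2 (RN7SL1 and RN7SL2) by symbol. A host is a same-strand gene that contains the whole RNA and passes the filter, the one with the highest mean TPM if several. Named partners were up to 3 passing genes of each list with the largest change. The RNAs and lists were chosen with earlier results of these data known. Alternatives were another pseudocount, no filter (rows at 0 in all libraries left out), a higher filter, median-ratio rescaling, quantile normalization, no variance trend, a replicate block, length and GC trends removed by loess, the RNAs left out of the TPM total, and each library left out.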

Additional observations from a re-analysis of the deposited data

How the results depend on the processing

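The 7 RNAs above 20 TPM (RN7SL1, RN7SL2, RN7SK, SNORD3A, RMRP, RPPH1 and RNU2-2P) were lower in every alternative run. They passed in each run that kept all 4 libraries, but RNU2-2P met the rule through shNT alone. SNORD3A, RMRP, RPPH1 and RNU2-2P were above 20 TPM in shNT alone, so their place in that range is a description. The number of RNAs lower, 10 as reported, was 8 to 11 under the other settings (8 of the 8 fitted with a mean of at least 5 TPM, 8 of 15 with no filter) and 9 to 12 with each library left out. The number higher, 0 as reported, was 2 with the replicate number as a block (11 lower) and 0 to 4 with each library left out, all 4 of the higher calls without shNT replicate 2 falling on RNAs under 10 TPM. Same-numbered libraries correlated by 0.039 in their deviations from the group means, and the numbers were not taken as pairs. No SD within a group exists in a fit without 1 of its 2 libraries, so the lone library is assumed to vary like the other group. Across all alternatives, 165 values of single RNAs kept their direction and side of the threshold, 5 lost and 11 gained a call, and 7 changed direction or became 0. For copies, hosts, partners and GLUD1 together, 557 kept both, 53 lost and 12 gained a call and 14 changed direction. POLR3A and SNAPC3 lost theirs with quantile normalization (limma adjusted p = 0.063 and 0.0529) and with length and GC trends removed (0.29 and 0.41, limma adjusted p = 0.183 and 0.137). With each library left out these ranges crossed or reached 0: SNORA23 0 to 4.09, SCARNA12 -0.38 to 1.27, SCARNA6 -0.40 to 1.90, SCARNA13 -1.83 to 0.44, SNORD3C -1.80 to 0.88, FBL -0.029 to 0.095, LARP7 -0.37 to 0.21, SNHG10 -0.052 to 0.26 and GLUD1 -0.37 to 0.15. SCARNA12 was -0.027 under quantile normalization. Median-ratio rescaling turned MEPCE (-0.093), FBL (-0.74), ATG16L1 (-0.19) and SNHG10 (-0.63). Quantile normalization turned ATG16L1 (-0.22) and SNHG10 (-0.56). Removing length and GC trends turned ATG16L1 (-0.25), FBL (-0.11) and SNHG10 (-0.33). The rescaled values turn because the typical gene is set near 0; the other causes were not tested. Depth is unknown, so which of the low RNAs are limited by it cannot be said.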
